A study of Arabidopsis thaliana with 24 samples.

Results

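AT3G02480 (probe set 258498_at) and DI21, drought-induced 21 (AT4G15910, probe set 245523_at), are genes of the late embryogenesis abundant (LEA) type. They are 2 of the 13350 genes that the annotation used here names on the array. They were chosen by their values after salicylic acid (SA), where both were higher in tbf1 than in wild type, so those values are described here without a test. Each gene has a single probe set of its own, which carries no other gene name. The data are 24 single-channel Affymetrix ATH1 arrays of mature leaves of Arabidopsis thaliana, in 8 groups of 3 arrays that the labels call biological replicates. Wild type Columbia-0 plants and plants of the tbf1 mutant, 3 weeks old, were sprayed with 1 mM SA or with water and taken after 6 h, or their leaves were infiltrated with elf18 at 10 µM or with water, for 2 h. TBF1 is a transcription factor that resembles heat shock factors, and elf18 is a short stretch of a bacterial translation protein, EF-Tu, that leaves sense through the receptor EFR. The tbf1 allele and the number of plants per array are not given in the sources used here, so p-values measure the spread between arrays, and the number of arrays limits the precision. The transcript of the mutated gene was not analysed here.

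LEA proteins are small, hydrophilic and largely unstructured proteins that build up in maturing seeds. In leaves their transcripts are known to increase with drought, cold, salt and the hormone abscisic acid (ABA), and the proteins are thought to protect membranes and enzymes against drying. AT3G02480 belongs to the LEA_4 group and is known as an ABA-responsive transcript. DI21 was named for its induction by drought and belongs to the LEA_3 group, which also holds the senescence-associated gene SAG21. In leaves SA is a defence hormone that is known to act against ABA signalling in several settings.

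All values are log2 expression made with robust multi-array average (RMA) and centred per probe set on its median over the 24 arrays, so 0 marks the middle of a gene's own values. A level of 1 gene cannot be set against that of another on this scale, and whether a gene lay above background cannot be read from it. For the same reason the labelled leaf tissue could not be checked by marker levels. Differences between arrays remain and are given as log2 differences with their standard error (SE), and folds assume a log base of 2. Across a leaf, a change in transcript per cell and a change in the share of cells that hold it cannot be told apart. Where groups are said to overlap or not, this describes the arrays of that gene, and the share over all probe sets was not counted.

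AT3G02480 was high in 1 group. After SA the 3 tbf1 arrays read 4.54, 4.57 and 4.36, while the wild type arrays read 0.25, -0.03 and -0.18. After water spray the values were 0.07, 0.10 and -0.05 in wild type and 0.40, 0.03 and 0.16 in tbf1. These 3 other spray groups thus overlapped each other, and every tbf1 SA array lay above all 21 remaining arrays. Water infiltration gave -0.11, -0.58 and -0.50 in wild type and -0.14, -0.57 and -0.22 in tbf1. With elf18 the values were 1.43, 0.97 and -0.12 in wild type and 0.08, -0.14 and -0.03 in tbf1. The wild type elf18 group was thus split, with replicate 3 at the level of the tbf1 elf18 arrays and replicates 1 and 2 above them. In the order of group means, tbf1 SA (4.49 ± 0.11, SD, n = 3) was followed by wild type elf18 (0.76 ± 0.80) and tbf1 water spray (0.20 ± 0.19). From wild type elf18 down to tbf1 elf18, with wild type water spray and wild type SA between, each group overlapped its neighbour in the order. The water infiltration groups of both genotypes came last and overlapped each other.

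DI21 was high in both tbf1 spray groups. After SA the tbf1 arrays read 3.25, 3.16 and 2.88 and the wild type arrays -0.20, -0.44 and -0.26. After water spray the tbf1 arrays read 1.86, 1.87 and 1.64 and the wild type arrays 0.22, 0.25 and 0.20. The groups of the 2 genotypes did not overlap under either spray, and within tbf1 the SA arrays all lay above the water arrays. Water infiltration gave -0.50, -0.55 and -0.68 in wild type and -0.86, -0.44 and -0.85 in tbf1, which overlapped. After elf18 the values were 0.51, 0.25 and 0.45 in wild type and -0.20, -0.27 and -0.32 in tbf1, with no overlap. The means ran from 3.10 ± 0.19 (SD, n = 3) in tbf1 SA and 1.79 ± 0.13 in tbf1 water spray to 0.40 ± 0.14 in wild type elf18 and 0.23 ± 0.03 in wild type water spray. The last named pair overlapped, as did tbf1 elf18 with wild type SA and wild type with tbf1 water infiltration, which formed the low end.

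**Figure D1:**
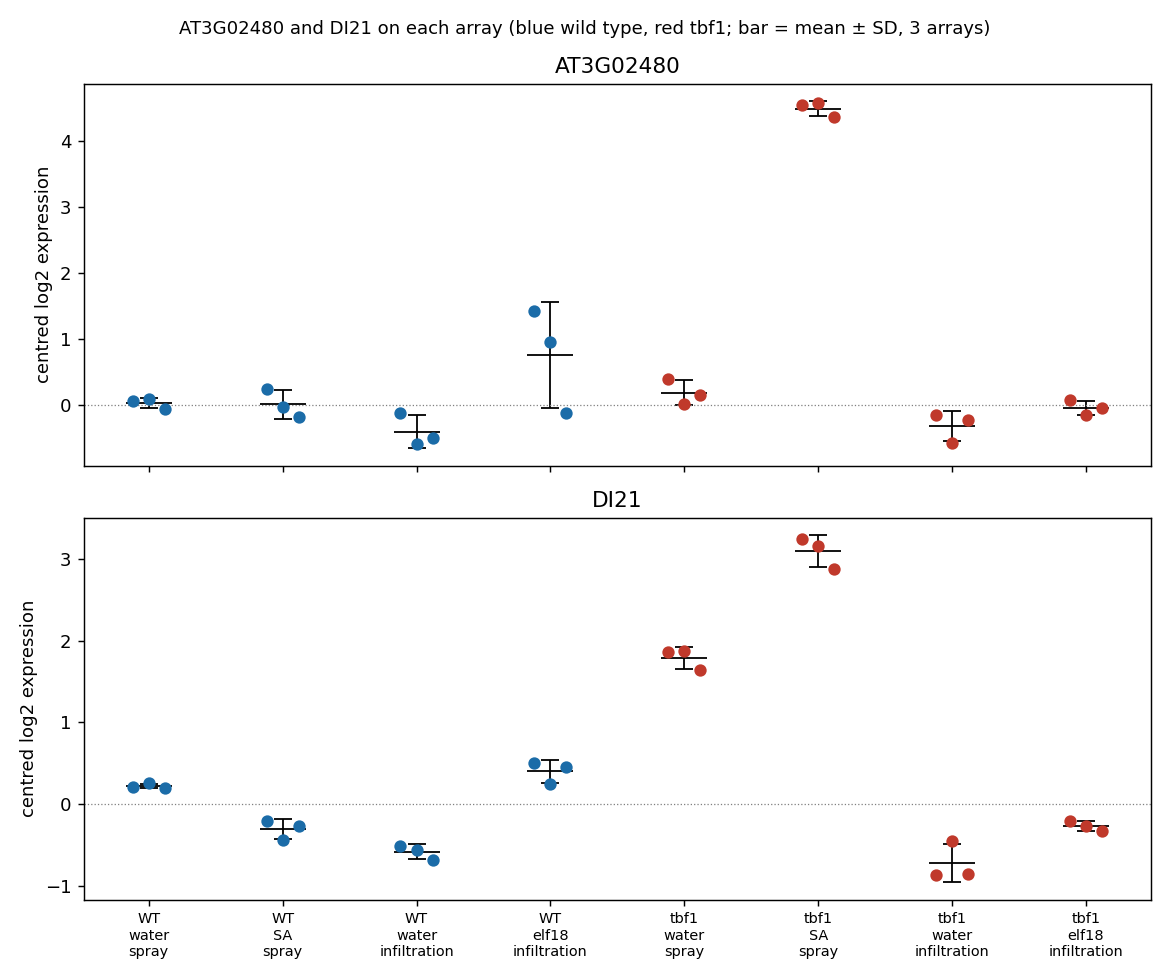
Centred log2 expression of AT3G02480 (top) and DI21 (bottom) on each of the 24 arrays, by group on the x axis; points are arrays (blue wild type, red tbf1) and bars the mean ± SD of 3 arrays. AT3G02480 stands out in tbf1 SA alone (4.36 to 4.57), while DI21 is raised in tbf1 after water (1.64 to 1.87) and after SA (2.88 to 3.25).

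The SA arrays give the size of the pattern for which the genes were chosen. After SA, AT3G02480 lay 4.47 ± 0.23 (log2, SE) above wild type in tbf1, a 22.2-fold difference and the second highest of 22746 probe sets. DI21 lay 3.40 ± 0.12 above it, 10.5-fold and 11th in the same order. From water to SA, tbf1 differed by 4.29 ± 0.23 in AT3G02480, 1st of all probe sets, and by 1.30 ± 0.12 in DI21, 2.47-fold. In wild type the same step was -0.02 ± 0.23 for AT3G02480 and -0.53 ± 0.12 for DI21, whose SA and water arrays did not overlap. The response to SA in tbf1 minus that in wild type was 4.32 ± 0.33 for AT3G02480 and 1.83 ± 0.17 for DI21. These comparisons share arrays, and the values are descriptions with no test.

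The genotypes were then compared on the arrays that had not chosen the genes, where the question was whether tbf1 differed already without SA. After water spray DI21 was higher in tbf1 by 1.57 ± 0.12 (log2, SE, 3 arrays against 3, 2.96-fold), with an adjusted p of 7e-11 in limma. Calls, at an adjusted p below 0.05, were common in this comparison, with 39.9% of probe sets higher and 28.8% lower around a median of 0.18. DI21 ranked 145th of 22746 from the top. AT3G02480, at 0.16 ± 0.23, was not called (adjusted p = 0.554, limma), and its 95% interval ran from -0.33 to 0.64, against 1.32 to 1.82 for DI21. The SE of each gene rests on 1 spread shared by all 8 groups. For AT3G02480 the arrays of wild type elf18, a group outside this comparison, spread most (SD 0.80). Fitted on the compared arrays only, the SE of AT3G02480 was 0.14 and it was again not called (adjusted p = 0.338, limma).

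After water infiltration neither gene was called between the genotypes, where 12% of probe sets were called higher and 8.55% lower. AT3G02480 differed by 0.08 (95% interval -0.40 to 0.57, adjusted p = 0.886, limma) and DI21 by -0.14 (-0.39 to 0.11, adjusted p = 0.539). For DI21 the gap between genotypes was larger after water spray than after water infiltration by 1.70 ± 0.17 (adjusted p = 9.15e-09, limma, a comparison added after the values were seen), where 33.1% of probe sets were called higher and 27.7% lower. For AT3G02480 this difference was 0.07 (adjusted p = 0.857), with an interval of -0.61 to 0.75. Spray and infiltration differed in time as well as in route, so these cannot be told apart.

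The tbf1 spray groups also stood apart in a 5' minus 3' control index, used here because no direct measure of RNA quality was at hand. This index, the mean 5' minus 3' difference of 6 pairs of control probe sets (actin, GAPDH and ubiquitin), was -1.67 ± 0.29 (log2, SD, n = 3) in tbf1 after water spray and -1.53 ± 0.05 after SA. In wild type it was 0.78 ± 0.08 and 0.48 ± 0.20 in the same order. The 3 groups with the lowest index, tbf1 water spray, tbf1 SA and wild type elf18 (-0.98 ± 0.16), were also the 3 with the highest means of both DI21 and AT3G02480. When the index entered the fit as a covariate, DI21 after water spray was at 1.75 ± 0.65 and was not called (adjusted p = 0.16, limma), and 0.954% of all probe sets were called. The difference between spray and infiltration was then 1.93 ± 0.80 (adjusted p = 0.193). AT3G02480 moved to 2.06 ± 1.20 after water spray (adjusted p = 0.387, limma) and to 6.05 ± 1.00 after SA, and DI21 to 3.55 ± 0.54 after SA. The slope for the index came only from its spread within groups (SD 0.004 to 0.29). The genotype gaps in the index were -2.44 after water spray and -2.01 after SA. Over gaps this large the adjusted values are extrapolations with a wide SE, and do not give effects freed of the index. Between tbf1 water spray and tbf1 SA the index differed by 0.14, AT3G02480 by 4.29 and DI21 by 1.30, where the values of the SA arrays are those that chose the genes. The part of RNA quality in the genotype differences was not tested.

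**Figure D2:**
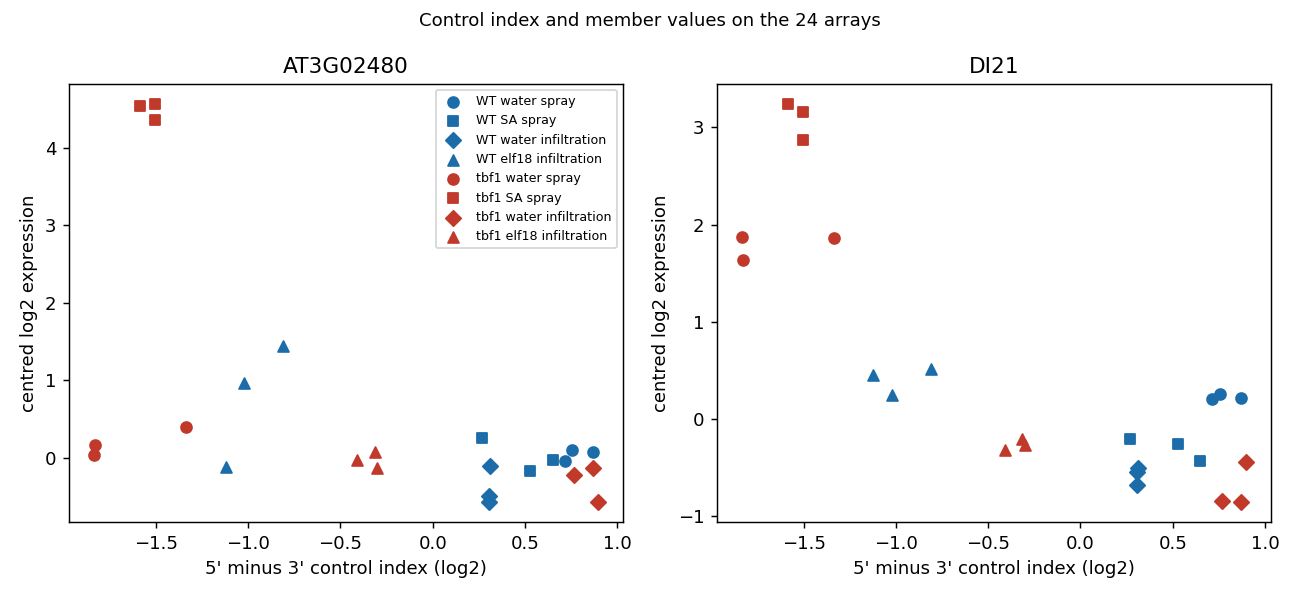
Centred log2 expression of AT3G02480 (left) and DI21 (right) against the 5' minus 3' control index of each array (x axis, log2); each point is 1 of 24 arrays, with colour for genotype and shape for treatment. The 6 tbf1 spray arrays lie at the low end of the index, and among them AT3G02480 separates SA (4.36 to 4.57) from water (0.03 to 0.40).

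Both genes were higher after elf18 in wild type plants. Over 3 arrays against 3, DI21 rose 1.98-fold, by 0.98 ± 0.12 in log2 (SE, adjusted p = 1.88e-07, limma), and AT3G02480 by 1.15 ± 0.23 (2.23-fold, adjusted p = 0.000183). Of all probe sets 31.2% rose and 26.9% fell, around a median of 0.13. The AT3G02480 groups overlapped through elf18 replicate 3, and its difference was 1.59 without that array and 0.82 without elf18 replicate 1, called either way. The index was lower by 1.29 after elf18, and adjusting for it gave AT3G02480 a value of 2.16 (adjusted p = 0.0274, limma).

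In tbf1 1 of the 2 genes was called after elf18. DI21 rose by 0.45 ± 0.12 (1.37-fold, adjusted p = 0.00372, limma), where 18% of probe sets were higher and 23.8% lower by the same test, and AT3G02480 was at 0.28 ± 0.23, which was not called (adjusted p = 0.355). Adjusted for the index, which was lower by 1.19 here, DI21 was at 0.54 and was not called (adjusted p = 0.331, limma), and AT3G02480 was at 1.20 (adjusted p = 0.232). The difference between the responses, tbf1 minus wild type, was -0.53 ± 0.17 for DI21 (adjusted p = 0.0352, limma), where 5.67% of probe sets were called lower and 9.82% higher. For AT3G02480 it was -0.88 ± 0.33, which was not called (adjusted p = 0.075), with a 95% interval of -1.56 to -0.20. The DI21 call was lost without replicate 2 or 3 of wild type water infiltration (-0.54 and -0.48), replicate 1 or 3 of wild type elf18 (-0.48 and -0.51), replicate 2 of tbf1 water infiltration (-0.39) or replicate 2 or 3 of tbf1 elf18 (-0.53 and -0.50), with adjusted p from 0.0551 to 0.131. Without wild type elf18 replicate 3 the AT3G02480 difference was -1.32 and was called (adjusted p = 0.000286), and without replicate 1 it was -0.54.

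After elf18 both genes were thus lower in tbf1 than in wild type, the opposite direction to that after SA. The difference was -0.67 ± 0.12 for DI21 (adjusted p = 0.000111, limma, groups without overlap) and -0.79 ± 0.23 for AT3G02480 (adjusted p = 0.00957), where 16.1% of probe sets were called lower and 20.8% higher. For AT3G02480 the call rested on the wild type elf18 arrays, at -0.46 without replicate 1 (adjusted p = 0.103) and -1.23 without replicate 3. Fitted on the 6 arrays of these groups only, it was not called (adjusted p = 0.109), and adjusted for the index it was at -1.29.

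**Figure D3:**
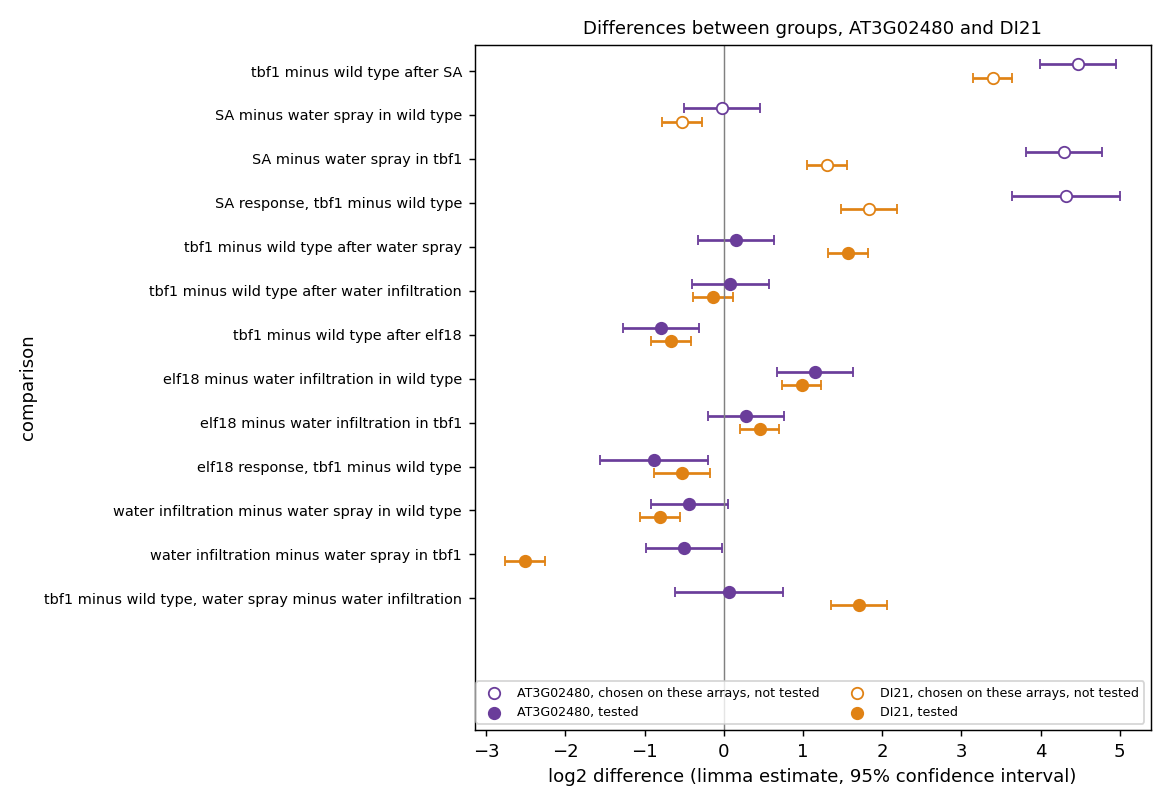
Log2 differences between groups (x axis, limma estimates) for AT3G02480 (purple) and DI21 (orange) in 13 comparisons; bars are 95% confidence intervals, and open circles mark comparisons with SA arrays, which chose the genes and were not tested. Both genes lie above 0 for tbf1 against wild type after SA (4.47 and 3.40) and below 0 after elf18 (-0.79 and -0.67).

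The water controls of the 2 routes differed for DI21. It was lower after water infiltration than after water spray, by -0.81 ± 0.12 in wild type (log2, SE, adjusted p = 5.49e-06, limma, 21.8% of probe sets called lower and 14% higher) and by -2.51 ± 0.12 in tbf1 (adjusted p = 3.61e-15, 45% called lower and 30.4% higher, median of all -0.22). After quantile normalization the wild type value was -1.35. AT3G02480 was at -0.43 ± 0.23 (adjusted p = 0.171) and -0.51 ± 0.23 (adjusted p = 0.0532), neither of which was called. Fitted on the compared arrays only, with an SE of 0.12 and 0.16, AT3G02480 was called in both genotypes (adjusted p = 0.00881 and 0.0181, limma). Its water spray and water infiltration arrays did not overlap in either genotype, but how common this was among all probe sets was not counted. Without tbf1 water spray replicate 2 the tbf1 value was -0.59 and was called (adjusted p = 0.0485, limma), and after quantile normalization the wild type value was -0.77 (adjusted p = 0.0189). Adjusted for the index, AT3G02480 was at -0.07 in wild type (adjusted p = 0.91, limma) and at -2.46 ± 1.24 (SE) in tbf1 (adjusted p = 0.245), and its genotype difference between spray and infiltration was at 2.40 ± 1.48 (adjusted p = 0.402).

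The other LEA genes give the setting for both. Of the 51 genes listed for the family, 35 had a named probe set, and 33 of these are not members. After water spray 21 of the 33 were higher in tbf1 and 3 were lower, a share of 63.6% higher against 39.9% of all probe sets, with a median of 0.38 against 0.18. Both quantile normalization and centring the arrays on their medians left 14 higher and 3 lower. These 42.4% higher stood against 28.2% and 29.5% of all probe sets in that order, and the 9.09% lower against 26.4% and 32%. Adjusted for the index none was called in limma, where 0.954% of all probe sets were. At an unadjusted p below 0.05 there were 7, and the share of all probe sets at that level was not counted. Most of these differences were small: LEA4-5, a LEA_1 group gene, was higher by 1.27 ± 0.16 (log2, SE, adjusted p = 2.7e-07, limma), M10 by 0.79 and AT3G15670, a LEA_4 gene, by 0.76. The largest falls were those of AT2G44060, of the LEA_2 group, at -1.60 ± 0.10, COR15B, a cold-regulated chloroplast LEA protein, at -1.39, and COR47, a dehydrin, at -0.99.

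After SA, in tbf1 against wild type 12 of the 33 were higher and 3 lower, or 36.4% higher against 31.1% and 9.09% lower against 27%, with a median of 0.20 against 0.14. Under other scalings the share of higher LEA genes lay below that of all probe sets. It was 18.2% against 24.6% with arrays centred on their medians (6 higher, 3 lower) and 24.2% against 25.5% after quantile normalization (8 higher, 3 lower). Adjusted for the index 1 was called, where 6.01% of all probe sets were. The largest difference was that of LEA4-5 at 2.46 ± 0.16 (adjusted p = 2.19e-12, limma), followed by COR15A at 1.02 and AT2G23120 at 0.81. AT2G44060 was at -2.10, COR47 at -1.24 and the dehydrin gene AT1G54410 at -0.65.

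In the response to SA itself, in tbf1 2 of the 33 rose and 9 fell, where 19.6% and 19.3% of probe sets were called, and the median was -0.15 against -0.08. The 9 falls became 5 after quantile normalization, 15.2% against 11.4% of all probe sets, 5 with array weights and 3 on the compared arrays alone. LEA4-5 rose by 1.84 ± 0.16 (adjusted p = 1.11e-09, limma) and LTI30, a dehydrin of cold and drought, by 1.06 ± 0.15, while COR47 fell by 1.17, AT1G54410 by 0.60 and M10 by 0.49. In wild type 4 rose and 4 fell, where 15.1% and 16.8% were called. LTI30 rose by 1.27, LEA4-5 by 0.64 and AT2G46140 by 0.45, while COR15B, COR47 and COR15A were at -1.60, -0.92 and -0.84. Between the genotypes, the SA response was higher in tbf1 for 4 of the 33 and lower for 4. Each count was 12.1% of the list, beside 16.6% higher and 12.7% lower over the array. The median was -0.16 against -0.07. COR15B differed most, by 1.415 ± 0.17 (adjusted p = 2.99e-07, limma). LEA4-5 followed at 1.20 ± 0.22 (adjusted p = 0.000183, limma) and COR15A at 0.765. On the lower side AT1G54410 was at -0.78, M10 at -0.53 and AT2G44060 at -0.50.

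LEA4-5, whose protein is known to accumulate under water deficit, had its highest mean in tbf1 after SA, as both members did. Its tbf1 SA arrays read 2.50, 2.04 and 2.17 and its tbf1 water spray arrays 0.33, 0.41 and 0.44. Wild type was at -0.03, -0.20 and -0.45 after SA and at -0.76, -0.81 and -1.05 after water spray. None of these 4 groups overlapped, and tbf1 lay above wild type under both sprays, as for DI21, while AT3G02480 was not called after water spray. LEA4-5 differed from both members in wild type, where it was higher after SA than after water by 0.64 (adjusted p = 0.0022, limma).

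After elf18 16 of the 33 LEA genes rose and 3 fell in wild type, a share of 48.5% against 31.2% higher, with a median of 0.27 against 0.13. After quantile normalization 6 rose and 3 fell, or 18.2% against 26% higher. Adjusted for the index 3 were called, where 16.6% of all probe sets were. The dehydrin gene AT4G38410 rose by 1.18 ± 0.12 (log2, SE, adjusted p = 1.01e-08, limma), AT2G46140 by 1.16 and LEA4-5 by 1.01, while AT2G44060 fell by 1.21, COR15B by 1.16 and COR47 by 0.77. In tbf1 4 rose and 5 fell, where 18% and 23.8% of probe sets were called; COR15A rose by 0.42 and COR47 fell by 1.44. After quantile normalization 9 rose and 5 fell in tbf1, where 22.2% and 26.5% of probe sets were called. The elf18 response was lower in tbf1 than in wild type for 6 of the 33 and higher for 1. These were 18.2% against 5.67% of all probe sets lower, and 3.03% against 9.82% higher. After quantile normalization 2 were lower, 6.06% against 4.95%, and 3 higher, 9.09% against 7.4%. AT4G38410 was at -1.05, AT2G46140 at -0.84 and LTI30 at -0.73, while COR15B was at 0.63. LEA4-5, at -0.66 ± 0.22 (adjusted p = 0.0471, limma), was 1 of the 6, and DI21 went the same way. After elf18 10 of the 33 were lower in tbf1 than in wild type and 2 were higher, or 30.3% lower against 16.1% and 6.06% higher against 20.8%. AT1G54410 was lower at -1.11, AT4G38410 at -0.78 and LEA4-5 at -0.68, while COR15B was higher at 0.54 and COR15A at 0.29. After quantile normalization 5 were lower, 15.2% against 11.5%.

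Within the family, of 14 other LEA_4 genes 7 were higher in tbf1 after SA and none lower in limma (0 at an unadjusted p below 0.05), with a range of -0.12 to 1.02, all below the 4.47 of AT3G02480. Over all probe sets 31.1% were higher and 27% lower, and the count of higher genes in the whole family depended on the scaling and the index as given above. The only other LEA_3 gene with a named probe set, AT3G53770, was at 0.06 ± 0.09 and was not called (adjusted p = 0.551). Between the water controls in tbf1, 17 of the 33 were lower after infiltration than after spray, as DI21 was, and 8 were higher. These were 51.5% against 45% of all probe sets lower, and 24.2% against 30.4% higher. After quantile normalization 10 were lower, 30.3% against 32.2%. Of the 14 LEA_4 genes 11 were lower and 2 higher in tbf1. In wild type 8 of the 33 were higher and 0 lower, where 14% and 21.8% of all probe sets were. By group, 4 of 5 dehydrins were higher after infiltration than after spray in wild type and 3 of 5 in tbf1, where 14% and 30.4% of all probe sets were. LTI30 was higher by 5.13 in wild type and 5.61 in tbf1, and COR47 by 2.20 and 3.54, the opposite direction to DI21. The dehydrin gene that the annotation names LEA, at -0.17 and -0.07, was called in neither genotype (adjusted p = 0.191 and 0.492, limma).

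**Figure D4:**
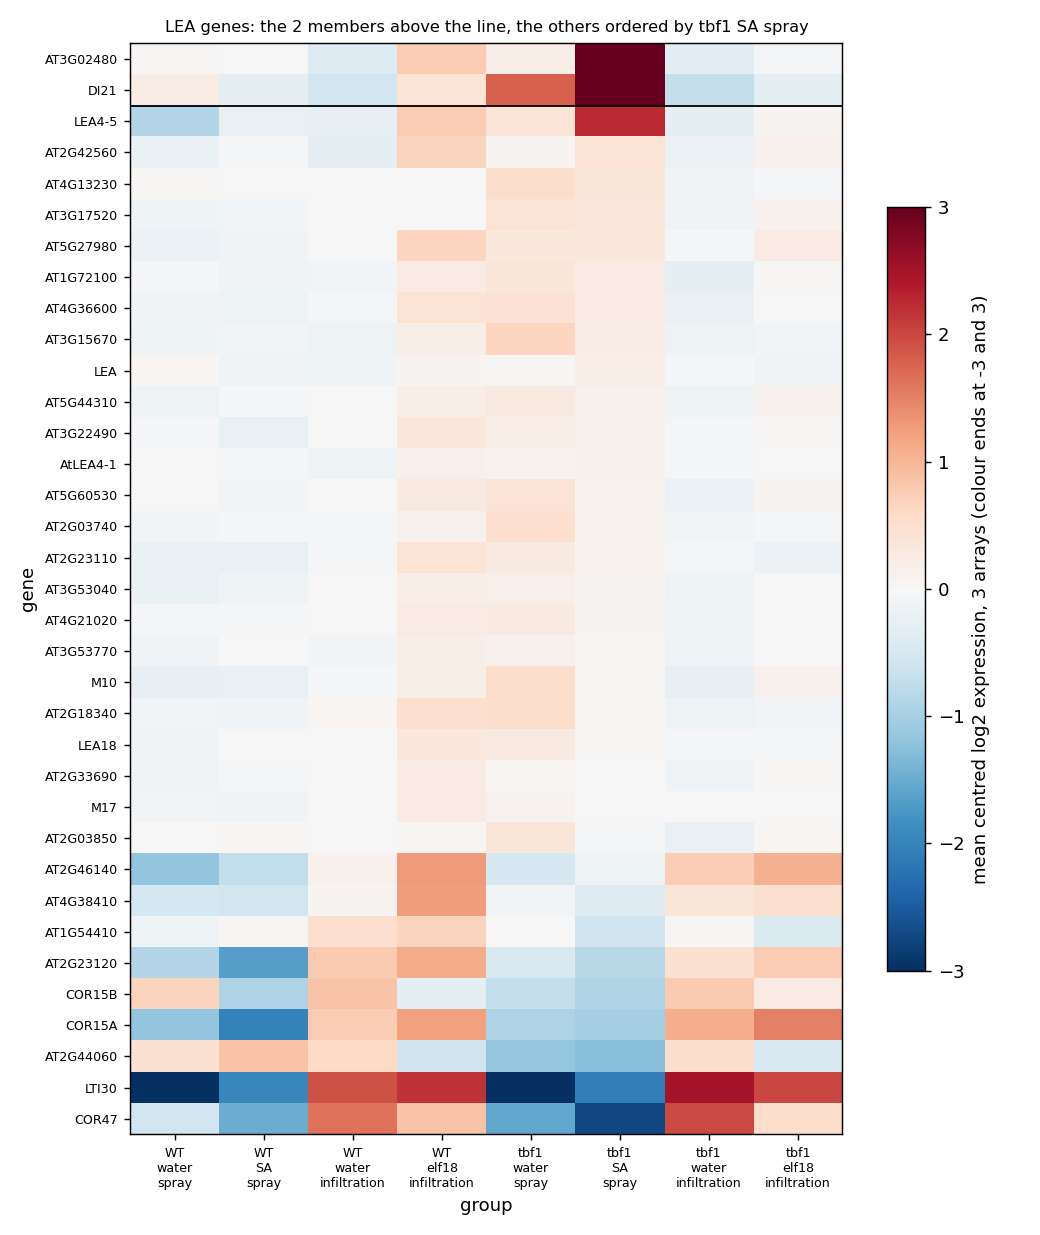
Mean centred log2 expression (colour, full at 3 in either direction, 3 arrays per group) of AT3G02480 and DI21, above the line, and of 33 other LEA genes (y axis), ordered by their tbf1 SA mean, in the 8 groups (x axis). LEA4-5 is the only other gene listed with a tbf1 SA mean above 2, at 2.24, and COR47 lies at the other end at -2.73.

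The genes whose group means ran most like those of each member were named by Pearson's correlation over the 8 group means, as a description of points that share arrays and scaling. Nearest to AT3G02480 were AT5G25570 (0.967), KPL (0.965), AT3G18510 (0.962), SAG29 (0.961), a senescence-associated sugar transporter, and HTR12 (0.961), the centromeric histone H3. Their tbf1 minus wild type differences after SA ran from 0.29 for KPL to 2.56 for SAG29, so the likeness is one of shape and not of size. They were picked by these same group means, where AT3G02480 stood out in tbf1 SA alone. Their higher mean in that group thus follows from the choice. Over the 24 single arrays none of these 5 was among the nearest 5, and KPL was at 0.626 and the others between 0.873 and 0.915. SAG29 read 2.12, 3.05 and 2.62 in tbf1 after SA and -0.10, 1.05 and 1.27 after water spray, where replicate 1 was low.

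Nearest to DI21 were AT2G42110 (0.992), AT2G38905 (0.991), AT1G60060 (0.989), THI2.1 (0.988), a thionin of defence, and CLE27 (0.986), a signalling peptide. None of these was among the nearest 5 over the 24 arrays, where they were at 0.898 to 0.952. All 5 had a higher mean in tbf1 than in wild type under both sprays, by 0.52 to 1.32 after water and by 0.80 to 2.17 after SA. They were picked by these same group means, so this direction follows from the choice. CLE27 read 0.94, 1.38 and 1.88 in tbf1 after water spray, above the wild type range of 0.02 to 0.20. The members correlated with each other at 0.857, and DI21 ranked 106th among the 13513 named probe sets by likeness to AT3G02480, while AT3G02480 ranked 750th by likeness to DI21.

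Other genes named for drought or ageing did not form 1 pattern. Of 3 senescence genes with a named probe set, SAG29 was higher in tbf1 than in wild type after SA at 2.56 ± 0.24 (log2, SE, adjusted p = 1.54e-09, limma), SAG101 was lower at -1.11 and WRKY6, at 0.03, was not called. DI19, a zinc finger gene also named for drought induction, was lower in tbf1 at -1.74 ± 0.12 after SA and -2.20 after water spray. DOR, an F-box repressor of drought tolerance, was higher at 0.46 after SA, and COR27, a cold-regulated gene, was not called at 0.18 (adjusted p = 0.386). The leaf photosynthesis genes RCA and LHCB4.1 were lower in tbf1 after SA, at -1.24 and -0.57, and after water spray, at -0.97 and -1.55. Of 3 lists on ABA synthesis, ABA signalling and ABA-induced targets, and of a list of seed storage genes, no gene had a named probe set, so they were not analysed here.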

How the data were processed

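Per the submitters' processing notes the values were made with RMA; no version of it is given there. The deposited log2 values of 22810 probe sets were found to be centred on each probe set's median over the arrays (largest absolute median 5e-07), and the log base was taken as 2. After 64 control probe sets were left out, 22746 were tested. In the annotation 13513 had 1 gene, 503 several and 8730 were unnamed here, and 13436 matched RefSeq TAIR10.1 by Entrez identifier. No coordinates are given, as the files name no build.

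The values of all 24 arrays went into a single limma fit (lmFit, contrasts.fit and eBayes; limma 3.58.1, R 4.3.3) that gave every group its own mean and left 16 residual degrees of freedom. Within a comparison the Benjamini-Hochberg adjustment ran over all probe sets, and calls were made below 0.05. The script was tested on simulated data. No arrays were identical, and replicates correlated at 0.842 to 0.957.

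The members and lists were chosen with earlier results of these data known. Named genes are the members, up to 3 called genes per list and direction, and the 5 nearest patterns per member. The spray against infiltration difference, the LEA groups, the genes DI19, DOR and COR27 and the single-array values of LEA4-5, SAG29 and CLE27 were added after the values were seen. Alternatives were quantile normalization, median-centred arrays, the arrays of the compared groups only, group-wise array weights, the 5' minus 3' index as a covariate, a replicate block, leaving out each array and, for nearest patterns, all arrays.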

Additional observations from a re-analysis of the deposited data

Results flagged for a closer look

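The elf18 response of DI21 differed between the genotypes by the interaction test, at -0.53 (tbf1 minus wild type, log2, adjusted p = 0.0352, limma), with a rise of 0.98 in wild type and 0.45 in tbf1. Of all probe sets 5.67% were called lower and 9.82% higher. The DI21 call was lost when certain single arrays were left out, as given above. The genotype difference of DI21 differed between water spray and water infiltration by 1.70 (adjusted p = 9.15e-09, limma), being 1.57 after spray and -0.14 after infiltration. In that comparison 33.1% of probe sets were called higher and 27.7% lower. The control index differed between genotypes by -2.44 after water spray and 0.54 after water infiltration. With the index as a covariate the DI21 difference was 1.93 and was not called (adjusted p = 0.193, limma). The part of the index in this was not tested.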

How the results depend on the processing

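Direction and call under the alternatives were kept except as follows. Comparisons with SA arrays have no call for the members. They are listed where the direction changed or where the size alone moved by at least 1 SD within groups. With quantile normalization AT3G02480 was 3.99 for tbf1 against wild type after SA, 3.92 for SA in tbf1, 3.96 for the SA response between genotypes, -0.77 (called) for water infiltration against water spray in wild type and -0.29 for the spray against infiltration genotype difference; DI21 was -0.64 and 1.11 for SA in wild type and tbf1 and 0.14 between genotypes after water infiltration. With median-centred arrays AT3G02480 was -0.053 in the spray against infiltration difference. With the index as a covariate AT3G02480 was 6.05 after SA between genotypes, 0.21 for SA in wild type, 3.98 for the SA response between genotypes, -0.34 after water infiltration between genotypes and -0.96 (called) for the elf18 response between genotypes; DI21 lost calls at 1.75 after water spray, 0.54 for elf18 in tbf1 and 1.93 for spray against infiltration. With group-wise array weights AT3G02480 was called for the elf18 response between genotypes (-0.88, adjusted p = 0.0264) and for infiltration against spray in wild type (-0.43, adjusted p = 0.0306). On the arrays compared alone it lost its call after elf18 (-0.79, adjusted p = 0.109) and was called for infiltration against spray in wild type (-0.43) and tbf1 (-0.51). The cause of these changes was not tested.

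Calls among the 33 other LEA genes follow, with those over all 22746 probe sets in brackets. Between genotypes after SA there were 15 (13208), or 9 with median-centred arrays (24.6% higher, 28.8% lower) and 1 with the index (1367, 6.01%). For SA in tbf1 there were 11 (8849), or 7 with quantile normalization (5851), 7 with array weights and 5 on the arrays compared. Between genotypes after water spray there were 24 (15647), or 0 with the index (217, 0.954%). For elf18 in wild type there were 19 (13221), or 9 with quantile normalization (12003) and 3 with the index (3774, 16.6%). For elf18 in tbf1 there were 9 (9491), or 14 with quantile normalization (11087) and 2 with the index (2317, 10.2%). There were also 15 with array weights and 14 on the arrays compared. For these last 2 alternatives calls over all probe sets were not counted.

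Leaving out each array, AT3G02480 ranged from -0.143 to 0.073 for SA in wild type, -0.007 to 0.227 between genotypes after water infiltration, -1.23 to -0.46 after elf18, -1.32 to -0.54 for the elf18 response between genotypes, -0.59 to -0.38 for infiltration against spray in tbf1 and -0.071 to 0.163 for spray against infiltration, and DI21 from -0.61 to -0.39 for the elf18 response between genotypes. All arrays in place of group means gave 0 of the same 5 nearest genes for either member.

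Same-numbered replicates of 2 groups correlated at -0.16 to 0.28 in their deviations, and in 0 of 28 group pairs were all 3 correlations above 0.1, so the numbers were not taken as pairs. With a replicate block AT3G02480 was called for the elf18 response between genotypes (-0.88, adjusted p = 0.0361) and for infiltration against spray in tbf1 (-0.51, adjusted p = 0.0264); no other member call changed. The alternatives planned for the ABA list were not run, as none of its genes had a named probe set.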
